A study of Arabidopsis thaliana with 5 samples.

Results

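NDX-GFP-only peaks are the regions that were called as enriched after immunoprecipitation of NDX-GFP and that did not share a single base with any region called for FLAG-NDX. NDX is a plant homeodomain protein of Arabidopsis thaliana, and the experiment placed it under an epitope tag in order to find where it sits on the genome. The members were chosen by position alone: of the 583 NDX-GFP peaks, 327 had an overlap of 0 bp with the 2243 FLAG-NDX peaks, and the other 256 overlapped at least 1 of them. The share of 56.1% is therefore the selection rule itself and no finding. Both lists together held 2826 peaks.

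Chromatin was taken from 10-day-old seedlings of 2 transgenic lines, flag-NDX and NDX-GFP. Both lines carried the transgene in the same background, with the ndx1-1(FRI) and flc-2 alleles, so neither line was in a wild-type background. The labels list 5 samples: 2 immunoprecipitations with an anti-FLAG antibody, 1 flag-NDX input without antibody, and 2 immunoprecipitations of NDX-GFP with an anti-GFP antibody. The promoter of the transgenes and the number of independent insertions are not given in the sources used here. No input of the NDX-GFP line is among the samples, and the ndx1-4 seedlings that the growth notes mention as an untagged control were not analysed here. The extraction notes instead describe S9.6, which binds hybrids of RNA and DNA, and the lists do not settle which procedure gave them. The line, tag and antibody differ together between the lists, so their parts in the difference cannot be told apart.

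One list of peaks was deposited for each line. How its 2 immunoprecipitations were combined, and what unit the score in the list has, are not given in the sources used here. Replicate spread and read depth are therefore unknown, and no comparison could be tested. Shares carry 95% Wilson intervals, which treat peaks as independent and cover counting error only. All positions are on TAIR10 and were read against the RefSeq TAIR10.1 sequence and annotation.

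In Arabidopsis, the gene-poor sequence around each centromere is packed into heterochromatin. It is rich in transposons, most of which are silenced and many of which are annotated as pseudogenes, and in satellite arrays, in which a short unit follows itself in tandem. Short reads from such families cannot always be placed at 1 copy, so a peak there can stand for more than 1 genomic copy. A homeodomain is a DNA-binding fold that often recognises a short AT-rich core.

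The sequences of the members fell between 2 extremes, and 5 members of the 3 largest sequence families show the repeated end. Members were put in the same family where they had at least 1 stretch of 31 bases (31-mer) in common on either strand. The first pair below belongs to a family of 11 members on chromosomes 1 and 4, the next pair to a family of 8 on chromosomes 1 and 5, and the last sequence to a family of 5 on chromosome 5. Each is the highest-scoring member of its family or, as the second line of a pair, the next highest. Sequences are the plus strand of TAIR10.1, 5′ to 3′, and capitals mark 31-mers that also lay under a FLAG-NDX peak elsewhere in the genome.

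chr1:14995246-14995485: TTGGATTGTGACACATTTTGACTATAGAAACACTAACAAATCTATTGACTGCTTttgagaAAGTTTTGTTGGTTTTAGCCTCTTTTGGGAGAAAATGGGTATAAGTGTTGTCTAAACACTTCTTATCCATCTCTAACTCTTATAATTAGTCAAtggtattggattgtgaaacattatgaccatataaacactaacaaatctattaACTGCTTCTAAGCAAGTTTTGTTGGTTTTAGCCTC
chr1:14703451-14703660: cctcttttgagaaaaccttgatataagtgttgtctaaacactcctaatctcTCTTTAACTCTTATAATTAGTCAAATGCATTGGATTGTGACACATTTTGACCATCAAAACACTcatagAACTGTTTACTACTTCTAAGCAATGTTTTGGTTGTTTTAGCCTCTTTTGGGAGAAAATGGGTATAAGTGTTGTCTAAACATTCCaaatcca
chr5:12058906-12059115: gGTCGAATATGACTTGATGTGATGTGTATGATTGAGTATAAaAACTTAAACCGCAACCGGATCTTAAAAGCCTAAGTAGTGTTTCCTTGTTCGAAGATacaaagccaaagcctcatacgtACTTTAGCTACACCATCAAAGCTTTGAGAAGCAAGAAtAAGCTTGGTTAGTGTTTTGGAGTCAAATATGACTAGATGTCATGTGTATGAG
chr1:15125866-15126165: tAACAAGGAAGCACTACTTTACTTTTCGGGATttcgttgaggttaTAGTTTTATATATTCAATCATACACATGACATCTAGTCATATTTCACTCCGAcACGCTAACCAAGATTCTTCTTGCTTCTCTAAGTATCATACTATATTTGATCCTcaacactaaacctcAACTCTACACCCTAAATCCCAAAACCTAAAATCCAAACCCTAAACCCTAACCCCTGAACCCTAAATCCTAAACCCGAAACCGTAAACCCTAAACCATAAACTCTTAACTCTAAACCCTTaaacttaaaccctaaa
chr5:11870131-11870280: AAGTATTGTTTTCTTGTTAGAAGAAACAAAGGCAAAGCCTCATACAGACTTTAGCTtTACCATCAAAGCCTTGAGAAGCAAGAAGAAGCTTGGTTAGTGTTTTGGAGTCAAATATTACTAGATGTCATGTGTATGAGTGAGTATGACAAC

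Capitals covered 182 of 240 bases, 147 of 210, 185 of 210, 255 of 300 and 149 of 150 in that order. The fourth sequence ends in exact and degenerate copies of CCCTAAA, which is the plant telomere unit TTTAGGG read on the other strand.

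The next pair lies in ARF12 and ARF15, 2 genes of the auxin response factor family, which are transcription factors that read out the hormone auxin. They are shown because 2 separate genes share sequence under their peaks, and capitals mark the shared 31-mers.

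chr1:12510961-12511065: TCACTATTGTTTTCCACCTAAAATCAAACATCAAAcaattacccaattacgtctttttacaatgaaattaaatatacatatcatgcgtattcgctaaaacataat
chr1:13085161-13085265: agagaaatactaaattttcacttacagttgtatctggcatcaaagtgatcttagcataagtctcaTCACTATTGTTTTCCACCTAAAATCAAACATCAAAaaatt

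The shared stretch was 35 bases long in a peak of 105 bases, at its start in ARF12 and near its end in ARF15. It gave 5 shared 31-mers of 75 in each peak, so most of each peak was not shared with the other.

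At the other extreme, these are the 3 highest-scoring members in which no 31-mer occurred a second time in the nuclear or organelle genomes. They are shown because their high scores lie in sequence without an exactly repeated 31-mer. Shorter repeats are not excluded: chr1:12902521-12902700 held a stretch of 21 bases that occurs more than once. Capitals would mark TAATTA, a homeodomain core, or AATNATT, a site type of the related HD-Zip proteins, and none of the 3 held either.

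chr3:4622971-4623120: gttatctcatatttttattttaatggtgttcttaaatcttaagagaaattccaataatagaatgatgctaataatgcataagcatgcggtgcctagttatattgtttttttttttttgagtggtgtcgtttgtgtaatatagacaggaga
chr1:12902521-12902700: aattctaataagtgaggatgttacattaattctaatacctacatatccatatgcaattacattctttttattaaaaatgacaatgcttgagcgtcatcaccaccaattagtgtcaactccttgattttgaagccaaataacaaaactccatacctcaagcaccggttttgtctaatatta
chr4:6562981-6563100: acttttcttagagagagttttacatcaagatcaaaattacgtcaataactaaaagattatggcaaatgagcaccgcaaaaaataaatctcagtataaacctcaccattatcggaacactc

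Scores of the 327 members ran from 82 to 179, with a median of 104 and an interquartile range of 96 to 115. Only 5 reached 150. The 256 overlapping NDX-GFP peaks ran from 84 to 200 with a median of 109, so the ranges overlapped from 84 to 179. Members made up 106 of the 146 peaks in the lowest quartile of the NDX-GFP scores (72.6%), 76 of 146 (52.1%) and 79 of 145 (54.5%) in the middle quartiles, and 66 of 146 (45.2%) in the highest. Among the 10 highest NDX-GFP scores, 2 were members, and among the 100 highest, 44 were. Members were 105 to 330 bp wide with a median of 120 bp, against a median of 135 bp for the overlapping peaks. Scores and widths come from the list that was divided, and they are given as a description.

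**Figure D1:**
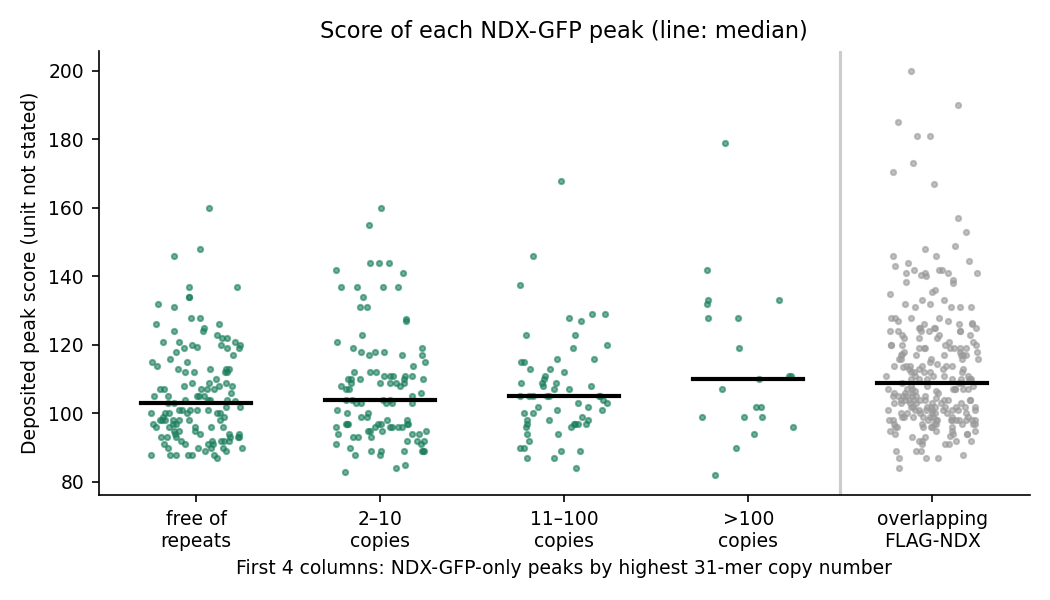
Deposited score of every NDX-GFP peak (vertical axis, unit not stated); each point is 1 peak, spread sideways for legibility, and lines are medians. The first 4 columns hold the 327 NDX-GFP-only peaks by the highest genomic copy number of any of their 31-mers, with medians of 103, 104, 105 and 110, and the last column holds the 256 peaks that overlapped FLAG-NDX (median 109).

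The strongest member, with a score of 179, was the first sequence above. It lay in intergenic sequence of chromosome 1, 4129 bp downstream of AT1G40087, and its most frequent 31-mer occurred 216 times. The second, with a score of 168, was at chr2:2557726-2557995, 13932 bp from the nearest protein-coding gene, in sequence of up to 37 copies. A score of 160 was reached by chr1:15747106-15747270, with 31-mers of at most 2 copies, and by chr3:4622971-4623120, the first repeat-free sequence above, 2262 bp downstream of AT3G13990. The member at chr2:6622651-6622815 scored 155 in the pseudogene AT2G15250. Among the next, chr1:12902521-12902700 (148) lay 17 bp downstream of AT1G35215, chr4:6562981-6563100 (146) lay 1082 bp upstream of AT4G10620, and chr1:15345571-15345690 (146) lay 86885 bp from any protein-coding gene. Tied for the last places at 144 were the ARF12 peak and 2 intergenic members, chr2:1779331-1779435 and chr1:14910796-14911035, of which the latter consisted wholly of repeated 31-mers. Of these 11 members, ties included, 9 had their midpoint in intergenic sequence, 1 in a pseudogene and 1 in a protein-coding gene.

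Members lay on all 5 chromosomes, with 76, 64, 62, 52 and 73 on chromosomes 1 to 5, or between 2.5 and 3.25 per Mb. They crowded towards the middle of each. The pericentromeric zone reaches 2.5 Mb in each direction from the 1 Mb window with the least protein-coding sequence, and covers 21% of the nuclear genome. It held 202 of the 327 members (61.8%, 95% Wilson interval 56.4 to 66.9%). The same share was 68.4% (62.4 to 73.7%) for overlapping NDX-GFP peaks and 50.6% (48.4 to 52.8%) for FLAG-NDX-only peaks. By chromosome the share of members in the zone ran from 56.5% on chromosome 3 to 73.1% on chromosome 4, where the zone takes up 21.3% and 26.9% of the sequence.

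Within the first 1 Mb from the middle there were 10.2 members per Mb, then 6.9 and 4.3 in the next classes of 1 Mb. From 3 to 4 Mb the density was 2.21 per Mb, and beyond 7 Mb it stayed between 0.462 and 1.13. The overlapping NDX-GFP peaks started at the same 10.2 per Mb and stood at 1.58 per Mb from 3 to 4 Mb. The difference between the curves was not tested.

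**Figure D2:**
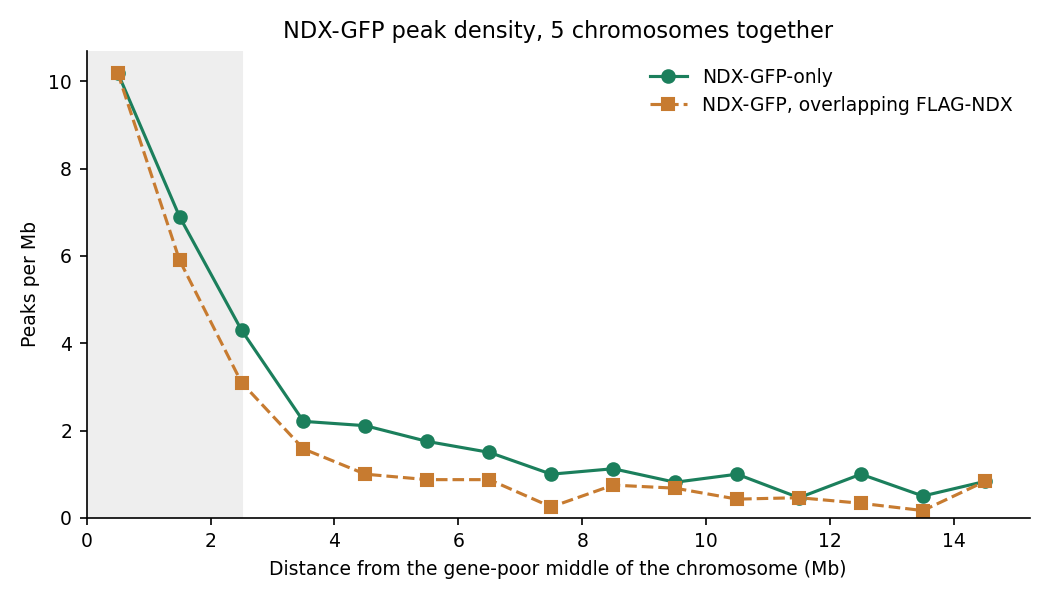
Peaks per Mb (vertical axis) against distance from the gene-poor middle of the chromosome (horizontal axis, Mb, classes of 1 Mb, 5 chromosomes together), with the pericentromeric zone shaded. NDX-GFP-only peaks (circles) and NDX-GFP peaks overlapping FLAG-NDX (squares) both stood at 10.2 per Mb in the first class and fell outwards.

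The densest 100 kb lay at chr1:14900001-15000000 with 6 members, whose scores ran from 87 to 179. The same window held 31 FLAG-NDX peaks and 5 overlapping NDX-GFP peaks. The next densest windows were neighbours, chr5:11900001-12000000 and chr5:12000001-12100000, with 5 members each beside 14 and 8 FLAG-NDX peaks. All 16 members of these 3 windows were intergenic and none was free of repeated 31-mers. Of the 233 windows that held a member, 166 held 1 and 51 held 2. Thus 166 of the 327 members were alone in their window, and the rest had at least 1 other in it. The median distance from a member to the next was 55500 bp.

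Each midpoint was given 1 class: first a protein-coding gene if it lay in one, then a pseudogene, then any other gene, then a promoter (the 1000 bp before a protein-coding gene), and otherwise intergenic. The largest class of members was intergenic (162, 49.5%, 44.2 to 54.9%), against 22.6% of the genome. Pseudogenes held 70 (21.4%, 17.3 to 26.2%) and protein-coding genes 63 (19.3%, 15.4 to 23.9%), against 8.68% and 54.1% of the genome. Promoters held 31 (9.48%, 6.76 to 13.1%), and 1 member lay in another gene, AT5G00550. The shares of intergenic and pseudogene members stood above those of the bases, and the share in protein-coding genes stood below. Overlapping NDX-GFP peaks had 31.2% in pseudogenes (25.9 to 37.2%) and 15.6% in protein-coding genes (11.7 to 20.6%). FLAG-NDX-only peaks had 17.9% and 29.4%. Promoter members were found on every chromosome except chromosome 4, which had 0 of its 52.

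Because genes are sparse in the zone, the members were also read against the bases of their own region. In the zone, 121 of 202 were intergenic (59.9%, 53.0 to 66.4%, against 43.3% of zone bases), and 55 lay in pseudogenes (27.2%, 21.6 to 33.7%, against 30.8%). Protein-coding genes held 17 (8.42%, 5.32 to 13.1%, against 18.4%). Zone members thus stood above the bases in intergenic sequence and below them in protein-coding genes. In the chromosome arms, 46 of 125 lay in protein-coding genes (36.8%, 28.9 to 45.5%), where such genes make up 63.6% of the bases. Intergenic sequence held 41 arm members (32.8%, 25.2 to 41.4%, against 17.1%) and promoters 22 (17.6%, 11.9 to 25.2%, against 15.1%). Arm pseudogenes held 15 (12%, 7.41 to 18.9%), and they cover 2.81% of arm bases. In the zone the share of bases in pseudogenes lay within the interval of the members, and in the arms it lay below.

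**Figure D3:**
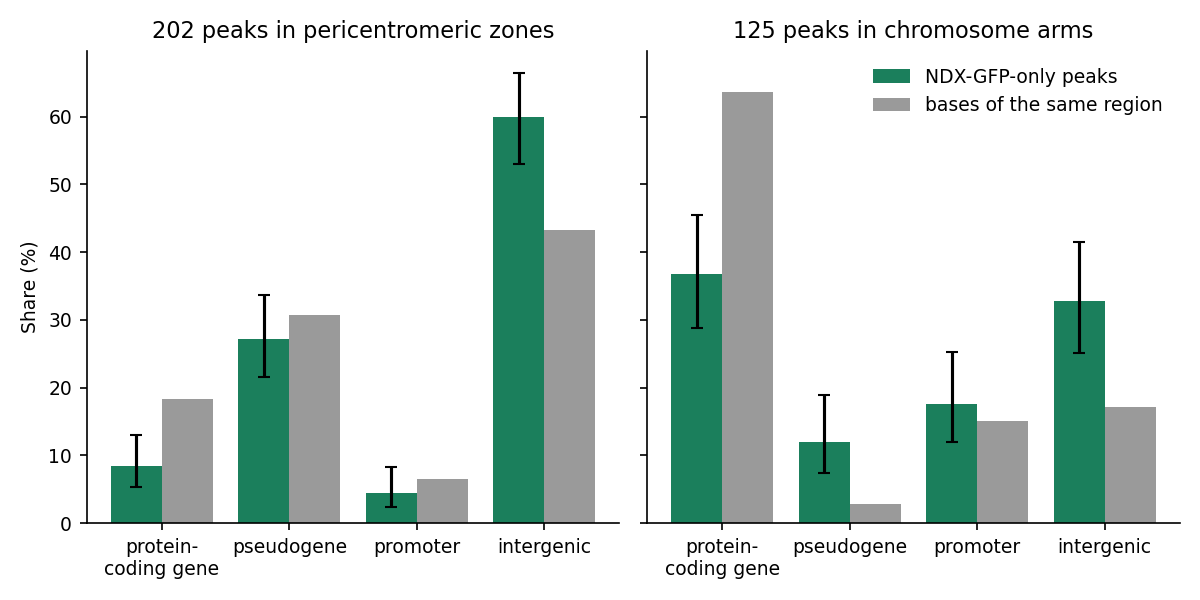
Share of NDX-GFP-only peaks by the annotation at their midpoint (green, error bars 95% Wilson intervals) beside the share of bases of the same region (grey), in percent. In the arms, pseudogenes held 12% of 125 members and 2.81% of bases, and in the zones intergenic sequence held 59.9% of 202 members and 43.3% of bases. The other peak sets, not drawn, also stood above the bases in both.

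The 70 pseudogene members fell in 67 annotated loci. The highest scores were 155 at AT2G15250, 142 at AT2G24660, an arm locus, and 137 at AT4G05550. Most of these loci carry no description, and 5 members had one. The single description with a transposon word belonged to AT5G09513, a pseudogene of a protein with the dimerisation domain of hAT elements, a family of DNA transposons, where the member scored 117. Transposon families could therefore not be assigned from this annotation.

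Of the 63 members in protein-coding genes, 28 had their midpoint in an intron (44.4%), 27 in a coding exon (42.9%) and 8 in an exon outside the coding sequence (12.7%). Introns, coding exons and the remaining exon sequence make up 28.1%, 52.2% and 19.7% of the bases of such genes. Counted from the edge of the peak, 123 members (37.6%) were within 1 kb of a protein-coding gene and 89 (27.2%) were over 10 kb away. The median distance was 7713.5 bp in the zone and 299 bp in the arms. It was 10579 and 305 bp for overlapping NDX-GFP peaks, and 8693.5 and 0 bp for FLAG-NDX-only peaks. The share of genome positions at these distances was not computed.

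The highest-scoring member in a protein-coding gene was that in an intron of ARF12 (144), followed at 137 by a coding exon of ARF15 and an intron of MLO14, which encodes a membrane protein of the MLO family. The MLO14 peak, at chr1:9227971-9228075, was free of repeated 31-mers. AT4G12740 (134, coding exon), AT1G39060 (133, intron) and AT5G62960 (124, intron) came next. The AT1G39060 peak is the second sequence above, with a 31-mer of 237 copies. LDL3, a histone demethylase of the LSD1 type, scored 123 in an exon outside the coding sequence, and UBP13, a ubiquitin-specific protease, scored 122 in an intron. AT2G07190 (coding exon) and ACS5, an enzyme of ethylene synthesis, in which the peak lay in an exon outside the coding sequence, both scored 120. Of these 10, the peaks in ARF12, ARF15 and AT1G39060 held repeated 31-mers and the other 7 did not. Another repeat-free member that scored 137, at chr1:10140001-10140120, lay 772 bp upstream of TBL38.

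Further genes were picked after their values were seen. A further pair of members lay at auxin response factor genes of chromosome 1, in an intron of ARF20 (94) and 33 bp upstream of ARF23 (110), and both held repeated 31-mers. ABCC1, which encodes an ABC transporter, held 2 members 75 bp apart, with scores of 88 and 107. MEA, the catalytic Polycomb subunit that is imprinted in the endosperm, had a repeat-free member in a coding exon with a score of 101, close to the median of all members.

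No member lay within 1 kb of a gene of the 3 lists examined. In the list of RNA-directed DNA methylation and heterochromatin genes, this was 0 of the 30 genes matched in the annotation (33 listed), and the nearest member was 20007 bp from DCL3, which makes small RNAs. It was 0 of 14 (16 listed) for Polycomb and abscisic acid genes, where the nearest was 132245 bp away. That list holds CLF and SWN, the relatives of MEA, but not MEA itself, which held the member described above. The flowering list gave 0 of 15, with the nearest member 10020 bp from FCA, a regulator of FLC. That list included FLC and NDX itself. No overlapping NDX-GFP peak and no FLAG-NDX peak lay within 1 kb of a listed gene either. The nearest were 4099 bp from RDR2 and 1517 bp from CLSY1. Over the whole annotation, 62 protein-coding genes held the midpoint of a member. The share of all genes within 1 kb of a member was not computed, so nothing about the members is read from these zeros.

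The distance to FLAG-NDX is the quantity that the rule divided, and its lower end is set by the rule. The gap from a member to the nearest FLAG-NDX peak had a median of 7095 bp and reached 289620 bp. At the edge of the rule, 4 members touched a FLAG-NDX peak without sharing a base, at chr1:12800221-12800430, chr3:12991291-12991485, chr3:14418151-14418255 and chr5:12054991-12055095, with scores of 109, 98, 110 and 99. The next gap was 15 bp, at the member in UBP13. Just outside the rule, the smallest overlaps were 15 bp, at chr4:3112531-3112650 (score 89) and chr5:11961901-11962080 (107), and 30 bp, at chr2:6910651-6910785 (89) and chr5:14322061-14322180 (99). All peak edges were multiples of 15 bp, so these members and non-members lay 1 or 2 grid steps from the boundary.

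The nearness of members to FLAG-NDX peaks was set beside that of all genome positions outside those peaks. Because the rule used overlap with the same peaks, these shares are a description from which nothing is read. By midpoint, 58 of 327 were within 1 kb of one (17.7%), against 3.44% of such positions. Since FLAG-NDX peaks also crowd in the zone, the same shares were taken by region. In the zone 46 of 202 members were within 1 kb (22.8%, against 8.32%), and in the arms 12 of 125 were (9.60%, against 2.15%). Within 10 kb the shares were 69.3% of zone members against 51.0%, and 35.2% of arm members against 18.3%. At 100 kb they were 202 of 202 zone members against 99.5% of positions, and 86.4% of arm members against 83.7%.

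**Figure D4:**
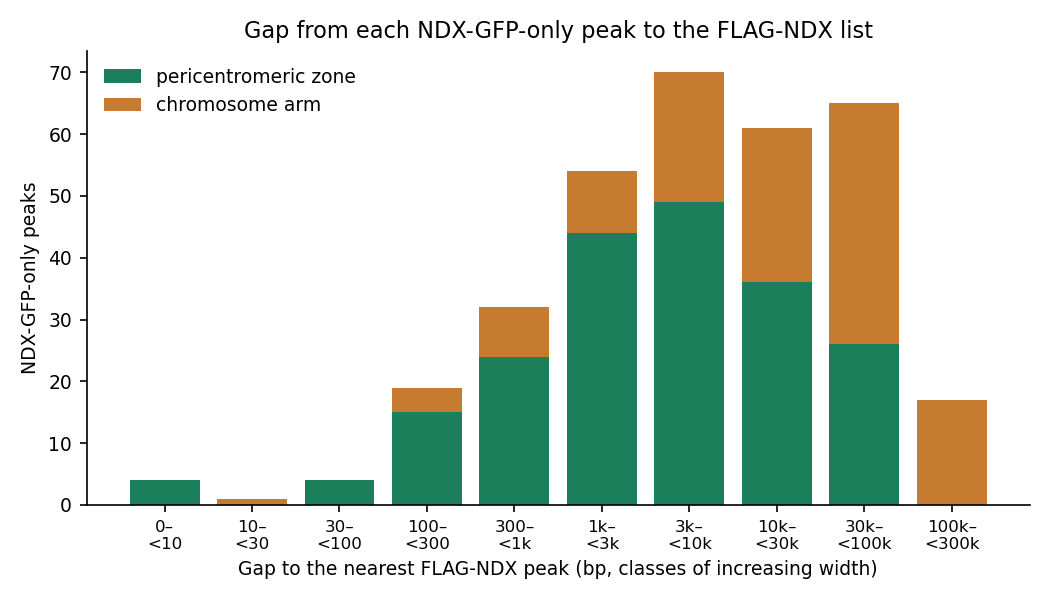
Number of NDX-GFP-only peaks (vertical axis) by the gap to the nearest FLAG-NDX peak (horizontal axis, bp, classes of increasing width), with zone members in green and arm members in orange. The median gap was 7095 bp, 4 members touched a FLAG-NDX peak, and all 17 gaps over 100 kb belonged to arm members.

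A different question is whether a member is a copy of sequence that the FLAG-NDX list does hold somewhere else. No 31-mer occurred a second time in 134 members (41.0%, 35.8 to 46.4%), against 34.4% of overlapping NDX-GFP peaks and 53.0% of FLAG-NDX-only peaks. For a comparison with the genome at equal length, the 120 bp around each midpoint were set beside all 120 bp windows of the 5 chromosomes. On that basis 43.1% of members (37.9 to 48.5%) and 80.4% of windows were free of repeated 31-mers. In the zone the shares were 29.7% (23.8 to 36.3%) and 47.3%, and in the arms 64.8% (56.1 to 72.6%) and 89.2%. In both regions the members' interval lay below the windows. The highest copy number was 2 to 10 in 108 members, 11 to 100 in 64 and over 100 in 21. All 21 of the last lay in the zone, and 41.8% of the repeat-free members did.

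Over the full peaks, 69 members (21.1%, 17.0 to 25.8%) shared a 31-mer with a FLAG-NDX peak at another position. Of these, 64 lay in the zone. Within the 120 bp around the midpoint the share was 30.2% of zone members (24.3 to 36.9%), against 6.13% of zone windows outside FLAG-NDX peaks. In the arms it was 5 of 125, against 0.241% of windows. Only a repeated 31-mer can be shared in this way, and more copies give more places for it, so a rise with copy number is built in. The counts were 7 of 108 members with 2 to 10 copies, 41 of 64 with 11 to 100 and 21 of 21 with more. Of all members with repeated 31-mers, 69 of 193 shared one (35.8%), against 7.51% of such 120 bp windows outside FLAG-NDX peaks. In the zone the shares were 43.8% and 11.7%. Here full peaks of varying width stand beside 120 bp windows. In the other direction, 272 of 1987 FLAG-NDX-only peaks (13.7%) shared a 31-mer with an NDX-GFP peak, and in the zone 25.4% did. The NDX-GFP list is the shorter one, so the shares of the 2 directions are not equal measures. With an overlapping NDX-GFP peak, 41 members (12.5%) shared a 31-mer. A member that shared a 31-mer did so with a median of 5 FLAG-NDX peaks and at most 68. For 55 of the 69, at least 1 of them was on the same chromosome, at a median distance of 7575 bp, and 4 lay within 1 kb. When longer but inexact matches were asked for (BLAST, at least 60 bp and 80% identity), 89 members matched a FLAG-NDX peak (27.2%, 22.7 to 32.3%). Of the 120 bp windows outside FLAG-NDX peaks, 2.32% did. In the zone the shares were 41.6% of members and 9.76% of windows. These BLAST shares too set full peaks of varying width beside 120 bp windows, and a longer sequence reaches 60 bp more easily. None of the 134 repeat-free members was among the 89. The remaining 238 members had no such BLAST match. This does not exclude a shared 31-mer, which the member at chr1:12766951-12767100 had.

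The 38 members that shared a 31-mer with another member formed 10 families, and 289 members shared none. Because the rule asks for an exact 31-mer, related sequences can fall in different families, as the families of 8 and 5 did. The 3 largest families held 24 members, all in the zone and all with a 31-mer under a FLAG-NDX peak. The family of 11 reached 251 copies with scores of 94 to 179, the family of 8 reached 318 copies with scores of 90 to 133, and the family of 5 reached 410 copies with scores of 82 to 142. Members that shared sequence thus differed in score by up to 85 in the family of 11, 43 in the family of 8 and 60 in the family of 5. The other 7 families were pairs, among them ARF12 with ARF15 and the 2 neighbours at chr2:2557531-2557680 and chr2:2557726-2557995, 45 bp apart, with scores of 109 and 168.

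Tandem repeats were sought by asking whether at least 50% of the 15-mers of a peak recur at 1 spacing within 2 kb on either side. This held for 30 members (9.17%, 6.5 to 12.8%), 29 of them in the zone, against 10.9% of overlapping NDX-GFP peaks (7.68 to 15.4%) and 5.18% of FLAG-NDX-only peaks. In the zone the shares were 14.4%, 14.9% and 8.25%. The spacings ran from 290 to 1948 bp, and a single second copy within 2 kb is enough to pass. A spacing of 170 to 190 bp was found in 0 of 327 members. The search asks for exact 15-mers, so neighbouring copies that differ from each other can fail it. This zero therefore does not show that arrays of such a unit are absent. Spacings in the family of 8 included 354, 355 and 534 bp, and whether these are multiples of a shorter unit was not tested. The share of genome windows was not computed. No member held a 31-mer of the mitochondrial or chloroplast genome (0 of 327, upper Wilson bound 1.16%). The same held for 0 of 256 overlapping NDX-GFP peaks and 1 of 1987 FLAG-NDX-only peaks had one, so this is no trait of the members.

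Base composition was narrower than in the genome windows, though members varied more than the other peak sets. The 120 bp around the midpoints had a mean GC content of 34.0% ± 4.70 (SD, n = 327 members), against 36.0% ± 8.23 over 991178 genome windows. It was 35.6% ± 3.52 in overlapping NDX-GFP peaks and 34.9% ± 4.31 in FLAG-NDX-only peaks. The highest value of a member was 43.3%, and 17.3% of windows lay above it. Of the 256 overlapping NDX-GFP peaks, 2 exceeded that value, and of the 1987 FLAG-NDX-only peaks, 16 did. On the AT-rich side, 15 members (4.59%) were under 25% GC, against 2 overlapping NDX-GFP peaks (0.781%), 1.11% of FLAG-NDX-only peaks and 8.69% of windows. The lowest was 13.3%, at an intergenic member 218 bp from AGO10, an Argonaute gene. CG cytosines, counted on both strands, numbered 3.30 ± 2.70 per 100 bp in members, 2.98 ± 2.44 in overlapping NDX-GFP peaks and 4.64 ± 3.92 in windows, and 17.1% of members had none, against 13.2% of windows.

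**Figure D5:**
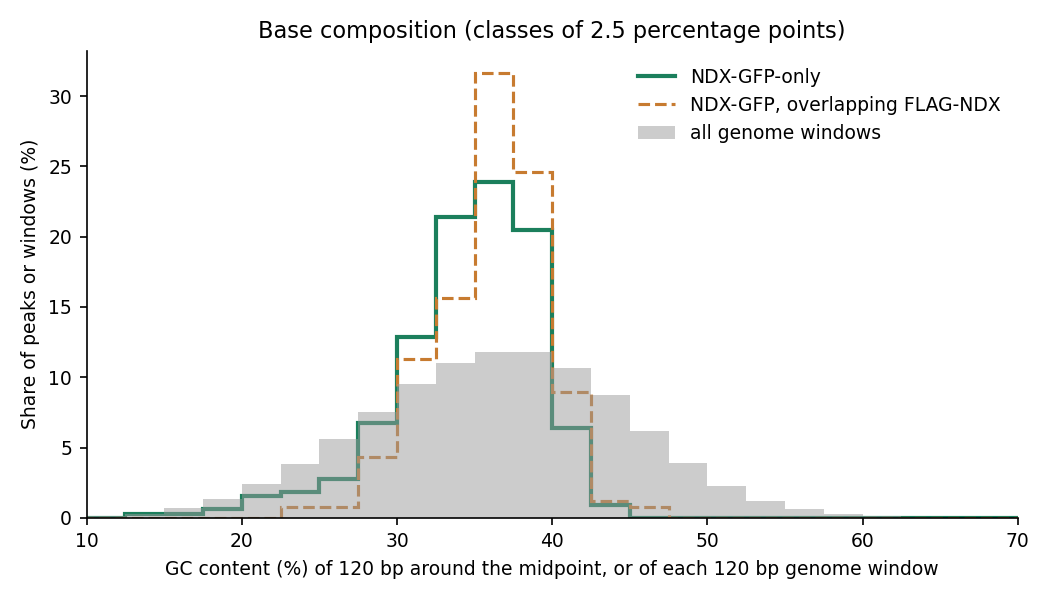
Share of peaks or windows (vertical axis, percent) by GC content (horizontal axis, percent, classes of 2.5 points) in 120 bp. Most of the 327 NDX-GFP-only peaks (solid line) and the NDX-GFP peaks overlapping FLAG-NDX (dashed line) stand in a narrower band than the genome windows (grey). Above the highest NDX-GFP-only peak lie 17.3% of windows, and below the lowest lie 0.195%.

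Short motifs were counted on both strands in the same 120 bp. The homeodomain core TAATTA was in 27 members (8.26%, 5.74 to 11.7%), against 8.21% of windows. AATNATT was in 31 (9.48%, 6.76 to 13.1%), against 10.2%, and the 2 motifs can overlap. For both, the share of windows lay within the interval of the members. The G-box CACGTG was in 1 member (0.306%, 0.0540 to 1.71%), against 1.32%. TTTAGGG was in 11 members (3.36%, 1.89 to 5.92%), against 1.67% of windows, and 10 of the 11 lay in the zone (4.95% of zone members, 2.71 to 8.87%, against 2.31% of zone windows). Overlapping NDX-GFP peaks held it in 7.42% (4.80 to 11.3%) and FLAG-NDX-only peaks in 3.93% (3.16 to 4.87%). In the zone these shares were 9.14% and 6.26%, so the members had the lowest share of the peak sets. Of the 11 members, 8 were intergenic members of the zone, with scores of 90 to 129. A match is a match of letters and does not show a binding site.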

How the data were processed

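The samples were 2 immunoprecipitations of each tagged line and 1 flag-NDX input, 5 in all. For each line the authors deposited 1 peak list with a score per peak, and the unit and normalization of the deposited score are not given in the sources used here. The submitters' processing notes name Bowtie2, SAMtools, Picard, deepTools, MACS2 and the TAIR10 build, with no role or order. The lists give no read counts, and sequencing depth is therefore unknown.

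Peaks were read against RefSeq TAIR10.1 with Python 3.11.15, numpy 2.4.6, pandas 2.3.3 and scipy 1.17.1, sequences were matched with BLAST+ 2.17.0 (E at most 1e-05), and plots were drawn with matplotlib 3.10.9. The k-mer, family, tandem and interval functions were tested on simulated data. The tandem spacing was taken as the smallest spacing that passed. Members, gene lists and alternatives were chosen with earlier results of these data known. The text names the 10 highest-scoring members, the 5 highest without repeated 31-mers, the 10 highest in protein-coding genes, the 3 smallest gaps and overlaps (with ties), the 3 densest 100 kb windows, the 3 largest families, and any member near a listed gene. The gene lists covered RNA-directed DNA methylation and heterochromatin, Polycomb and abscisic acid, and flowering, and they were matched by symbol. Alternatives changed the overlap rule, the score threshold, the zone width, the promoter length, the k-mer length, the assignment of a peak to a class and the merging of close peaks.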

Additional observations from a re-analysis of the deposited data

How the results depend on the processing

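No paired analysis was possible because each line has a single peak list, and for the same reason no replicate could be left out. Of 43 alternative values, 33 stayed within 1.5 times the main count or within the interval of the main share. The number of members was 146 when NDX-GFP peaks below the list median were left out. The share in the pericentromeric zone was 44.3% with a half-width of 1.5 Mb (12.6% of the genome) and 71.9% with 4 Mb (33.2%). With promoters of 500 bp, 3.67% of members were in promoters and 55.4% were intergenic. The share free of repeated k-mers was 25.4% with k-mers of 21 bases and 61.8% with 50. The share with a k-mer under a FLAG-NDX peak elsewhere was 15.7% when members less than 1 kb from a FLAG-NDX peak were left out, 10.7% with k-mers of 50 bases and 27.2% by BLAST, an alternative chosen after seeing the data. The zone, promoter and k-mer shifts follow from the lengths changed, and the smaller count from the peaks left out. For the other shifts (15.7% and 27.2%) the cause was not tested. Without reads or replicate lists, a member that fell just short of the threshold in FLAG-NDX cannot be told from one with no signal there.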
